A study of Mus musculus with 16 samples.

Results

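Axon guidance ligands and receptors were followed between size-selected cells of the mouse spleen and whole spleen. The set holds the semaphorins of classes 3 to 7, plexins, neuropilins, ephrins, Eph receptors, Slits, Robo receptors, netrins, Unc5 receptors and Dcc. Members were taken by gene symbol, with no cut on a measured value, although the gene families were picked with earlier results of these data known. Of the 54838 genes in the count table, 69 had such a symbol: 35 ligands and 34 receptors in 12 families.

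RNA of 16 samples was sequenced, all from the spleen of C57BL/6 mice, with no genetic change or treatment in the labels and no age given. The 8 size-selected samples were cells that remained on a strainer after the organ had been digested with enzymes and red blood cells lysed, and the labels call their source spleen glia, the supporting cells of nerves. The 8 whole spleen samples carry the same extraction text, so how they were made is not described separately. Each of 8 numbers, 4 male (407, 408, 427 and 435) and 4 female (436, 445, 447 and 460), names 1 sample of each group. The stated question was which genes are enriched in spleen glia over whole spleen. The labels do not say that the numbers are separate animals, so the p-values measure the spread between these samples, which may be technical.

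Axon guidance molecules were first described as cues that steer growing nerve fibres and are also used by vessels, glia and immune cells. Class 3 semaphorins are secreted and act through neuropilins, which bind them, together with plexins, which signal. Semaphorins of classes 4 to 7 are mostly anchored in the membrane and bind plexins directly. Ephrins sit on one cell and bind Eph receptor tyrosine kinases on a neighbouring cell, Slits bind Robo receptors, and netrins bind Dcc and Unc5 receptors. In the spleen, sympathetic fibres follow arteries and their branches into the white pulp, while lymphocytes and myeloid cells carry several semaphorins and plexins of their own.

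Levels are CPM, the count of a gene over its library total in a fixed unit, on totals scaled by the trimmed mean of M-values (TMM). Library totals ran from 13119992 to 19944440 estimated counts in the size-selected samples and from 12153770 to 16282454 in whole spleen. The size-selected samples had more of the markers of every stromal type examined: 12 of 12 tested glia markers, 10 of 10 of endothelium, 10 of 10 of fibroblasts and 8 of 8 of smooth muscle were called higher. With the sample number as a block, 11 of the 12 glia markers were called, and Gfap was not (adjusted p = 0.0933, edgeR). Summed over their lists, glia markers reached 105 to 771 CPM in these samples, endothelial markers 913 to 2426 CPM, fibroblast markers 1762 to 5885 CPM and smooth muscle markers 999 to 4739 CPM. In whole spleen the same sums were 8.93 to 27.5, 101 to 262, 9.47 to 91.7 and 18.2 to 108 CPM. All 6 tested mesothelial markers and 7 of 7 megakaryocyte markers were also called higher. Of the macrophage markers 4 of 9 were called higher, a share near the 37.5% of all genes tested. With the sample number as a block it was 6 of 9, beside 38.1% of all genes. The macrophage sums were 3536 to 8298 CPM in the size-selected samples and 2051 to 3580 CPM in whole spleen. Of 10 markers of sympathetic neurons, 4 were tested and 3 called higher, with sums of 20.7 to 65.9 CPM against 3.85 to 9.46 CPM, while Th had no count in any sample. Of the 8 markers in each list, 6 of B cells, 7 of T cells and 7 of neutrophils were called lower, as were 3 of 7 erythroid markers, beside 30.4% of all genes tested. With the block these counts were 7, 7, 8 and 7, beside 31.3% of all genes. The block also called 1 T cell marker higher. The fraction labelled spleen glia thus held RNA of several cell types. Its glia markers summed to less than those of vessels and fibroblasts. The lists hold different genes, so these sums do not compare amounts of cells between types. In such bulk samples, fewer cells of a type and less RNA per cell cannot be told apart. Of the genes that respond to dissociation, 8 of 10 were also called higher. Ier2 was called lower by the deposited counts, with a log2 fold change of -0.39, but not once the constants described for Sema4f below were divided out (0.011, adjusted p = 0.928, edgeR). The part of cell makeup and of dissociation in the differences below was not tested.

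The 250 bases before the start of 4 members are shown because these genes differ in outcome: Efnb2 and Ephb4 were called higher, Plxnc1 was not called and Sema4f was called lower. The sequences are from RefSeq on GRCm38.p6, read 5′ to 3′ on the strand of the gene. Capitals mark GC boxes, spelled GGGCGG, and TATA boxes, spelled TATAAA, each searched for on both strands.
Efnb2, chr8:8661243-8661492, minus strand: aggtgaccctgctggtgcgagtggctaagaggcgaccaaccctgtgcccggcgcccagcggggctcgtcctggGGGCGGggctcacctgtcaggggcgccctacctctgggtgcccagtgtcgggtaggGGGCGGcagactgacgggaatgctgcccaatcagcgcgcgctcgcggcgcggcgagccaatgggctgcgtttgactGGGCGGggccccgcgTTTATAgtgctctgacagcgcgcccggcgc
Ephb4, chr5:137349859-137350108, plus strand: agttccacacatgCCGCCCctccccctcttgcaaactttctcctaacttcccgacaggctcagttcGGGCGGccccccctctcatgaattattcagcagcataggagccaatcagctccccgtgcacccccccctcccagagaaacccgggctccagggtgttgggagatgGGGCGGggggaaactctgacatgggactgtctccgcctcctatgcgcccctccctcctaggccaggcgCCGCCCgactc
Plxnc1, chr10:94944846-94945095, minus strand: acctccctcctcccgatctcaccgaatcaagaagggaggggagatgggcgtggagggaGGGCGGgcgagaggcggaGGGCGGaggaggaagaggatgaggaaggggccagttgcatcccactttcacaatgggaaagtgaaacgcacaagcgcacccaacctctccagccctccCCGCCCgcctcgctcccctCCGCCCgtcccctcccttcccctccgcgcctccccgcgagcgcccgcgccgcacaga
Sema4f, chr6:82939770-82940019, minus strand: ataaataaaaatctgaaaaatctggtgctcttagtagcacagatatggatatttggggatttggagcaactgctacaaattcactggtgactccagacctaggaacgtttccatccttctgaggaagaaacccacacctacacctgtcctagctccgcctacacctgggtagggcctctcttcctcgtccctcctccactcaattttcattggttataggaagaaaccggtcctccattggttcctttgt
The Efnb2 stretch held 3 GC boxes, 1 TATA box and 27 CpG dinucleotides. The Ephb4 and Plxnc1 stretches each held 4 GC boxes, with 12 and 22 CpG, so the gene that was not called had as many GC boxes as one that was called higher. The Sema4f stretch held neither motif and 4 CpG. Of the 59 members with a RefSeq start, 43 (72.9%) had a GC box, compared with 32.9% of 27025 genes and 58.9% of the 10208 coding genes that entered the test. A TATA box was in 2 members, Efnb2 and Slit2 (3.39%), compared with 13.0% of all genes and 6.46% of tested coding genes. The ETS core CCGGAA, on either strand, was in 6 (10.2%), compared with 12.2% and 21.9%. The median number of CpG was 16 in the members and 15.5 in tested coding genes. For 44 of the 59 the RefSeq start lay within 100 bases of the start in the gene annotation, and a match says only that these letters are in the window.

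Most guidance genes that could be tested were more abundant in the size-selected samples, with at least 1 member called higher in each of the 12 families. Of the 69, 53 passed the filter on low counts, which asks for at least 0.686 CPM in at least 8 samples, and 48 of these were called higher, 1 was called lower and 4 were not called (edgeR quasi-likelihood test, adjusted p under 0.05). Among all 14510 genes tested, 37.5% were called higher and 30.4% lower, together 67.9%. With the sample number as a block, 49 members were called higher, against 38.1% of all genes. The 48 comprised 24 of 27 tested ligands and 24 of 26 tested receptors. The median log2 fold change of the tested members was 3.85, or 3.77 with the members at 0 in whole spleen set to their lower bound, and that of all genes tested was 0.05. A call at a rise of 3 or more on the log2 scale was made for 33 of the 53 and for 11.8% of all genes tested. For 42 of the 53 the lowest size-selected sample lay above the highest whole spleen sample, which held for 23.4% of all genes tested.

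These counts are a description. Of the 53 tested members, 31 had fewer than 8 whole spleen samples over the filter and 8 of those had none, so these passed wholly or partly through the group in which they were high. The other 22 were over the filter in all 8 whole spleen samples. Among those 22, 18 were called higher, Sema4f was called lower and Sema4d, Sema4b and Plxnc1 were not called, with a median log2 fold change of 2.75.

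**Figure D1:**
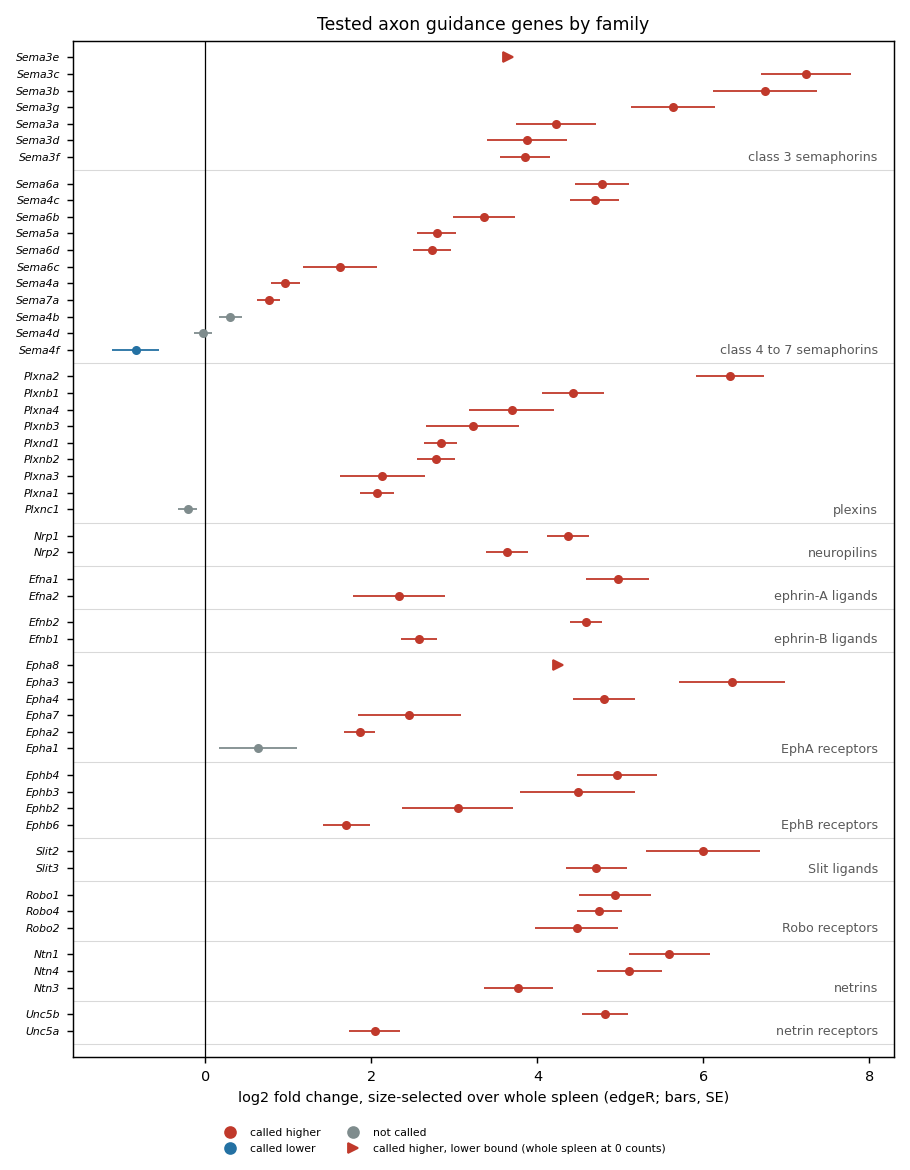
Log2 fold change of size-selected over whole spleen samples (x axis) for the 53 tested members, grouped by family, with bars for the standard error. Arrowheads mark the lower bound for Sema3e and Epha8, which had 0 counts in all 8 whole spleen samples; 48 points lie right of 0 as called higher, Sema4f is called lower and 4 members in grey were not called.

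The secreted class 3 semaphorins were the ligand family in which every member was tested and called higher, 7 of 7. Sema3c, a secreted ligand of neuropilins, was measured at 9.60, 14.7 and 36.5 CPM (lowest, median and highest) in the size-selected samples and at 0, 0 and 0.431 CPM in whole spleen. No value overlapped, and 5 of the 8 whole spleen samples had no count. The log2 rise was 7.23 (SE 0.54, adjusted p = 1.76e-09). Sema3f, which binds neuropilin 2 with preference, was the most abundant of the family, at 59.0, 92.9 and 141 CPM compared with 3.27, 5.59 and 15.2 CPM in whole spleen. The groups did not overlap, and the highest sample of both was number 427. Sema3f rose by 3.85 on the log2 scale (SE 0.30, adjusted p = 3.07e-09).

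Sema3e, the class 3 member that binds plexin D1 without a neuropilin, was at 0.913, 1.71 and 7.95 CPM in the size-selected samples and had no count in any whole spleen sample. Against a floor of 3 counts per library it was at least 12.6-fold higher. Sema3b and Sema3g, named here after their values were seen, had log2 fold changes of 6.74 (SE 0.63) and 5.63 (SE 0.51). Sema3g lay at 23.8, 54.2 and 102 CPM in the size-selected samples and at 0, 0.654 and 3.10 CPM in whole spleen. Sema3b was at 15.4, 21 and 89.8 CPM compared with 0, 0.176 and 1.55 CPM. The whole spleen sample 427 was the highest for Sema3b, and without that sample the log2 fold change was 7.91. The remaining members, Sema3a and Sema3d, had log2 fold changes of 4.22 and 3.87. For Sema3d it was 4.51 without whole spleen sample 427, which had the highest value of that group.

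The membrane-bound semaphorins of classes 4 to 7 were split. Of 13 members, 11 were tested: 8 were called higher, 1 lower and 2 were not called, with a median log2 fold change of 1.62. Sema6a, a transmembrane ligand of the plexins A2 and A4, was at 16.4, 31.5 and 45.7 CPM in the size-selected samples and at 0.233, 1.28 and 1.79 CPM in whole spleen. The groups were well apart, with a log2 rise of 4.78 (SE 0.33, adjusted p = 7.66e-10). Sema4c, a ligand of plexin B2, was at 50.9, 96.4 and 123 CPM compared with 1.75, 2.89 and 7.10 CPM. Its values did not overlap either, and its log2 fold change was 4.69 (SE 0.29, adjusted p = 3.03e-10). Sema6b, Sema5a, Sema6d and Sema6c followed with log2 fold changes of 3.36, 2.79, 2.73 and 1.62.

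Sema4a and Sema7a, which are known from T cell and myeloid biology as well as from neurons, were called higher by smaller amounts. Sema4a was at 35.1, 41.9 and 60.9 CPM in the size-selected samples and at 11.7, 23.4 and 30.5 CPM in whole spleen, with a log2 rise of 0.96 (SE 0.17, adjusted p = 8.55e-05). Sema7a was at 18.4, 24.9 and 35.0 CPM compared with 11.4, 15.3 and 19.4 CPM. In these deposited values the groups overlapped at their edges although all 8 pairs were higher. Its log2 fold change was 0.76 (SE 0.13, adjusted p = 6.29e-05). Its size-selected values carry a constant of the kind described for Sema4f below. With the constants divided out, the log2 fold change was 1.17 (adjusted p = 5.97e-07, edgeR), so the overlap and the small rise depend in part on them.

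Sema4d, also known as CD100, is carried by lymphocytes and binds plexin B1 and the B cell protein CD72. It was at 81.5, 93.1 and 120 CPM in the size-selected samples and at 81.0, 94.7 and 139 CPM in whole spleen. The groups covered nearly the same range, 5 of 8 pairs were higher, and the log2 fold change was -0.03 (SE 0.11, adjusted p = 0.836). Its gene lies at chr13:51685529-51793747 (GRCm38). Sema4b was at 33.8, 37.3 and 58.7 CPM compared with 23.1, 34.4 and 43.9 CPM, with 7 of 8 pairs higher. Its log2 fold change was 0.30 (SE 0.14, adjusted p = 0.0681), and with the sample number as a block it was 0.30 with an adjusted p of 0.0207, which is past the threshold.

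Sema4f, a transmembrane semaphorin first described in brain, was the only member called lower. It was at 2.19, 3.78 and 7.07 CPM in the size-selected samples and at 2.61, 8.60 and 10.7 CPM in whole spleen. The groups overlapped because whole spleen sample 447, at 2.61 CPM, lay far under the other 7, which were at 7.21 CPM or more, and 7 of 8 pairs were lower. The log2 fold change was -0.84 (SE 0.28, adjusted p = 0.0136). Its deposited size-selected values are multiplied by a constant below 1 in each column. With those constants divided out, the log2 fold change was -0.60 and the adjusted p 0.0665, so the call was lost. The gene lies at chr6:82911885-82939769 (GRCm38).

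**Figure D2:**
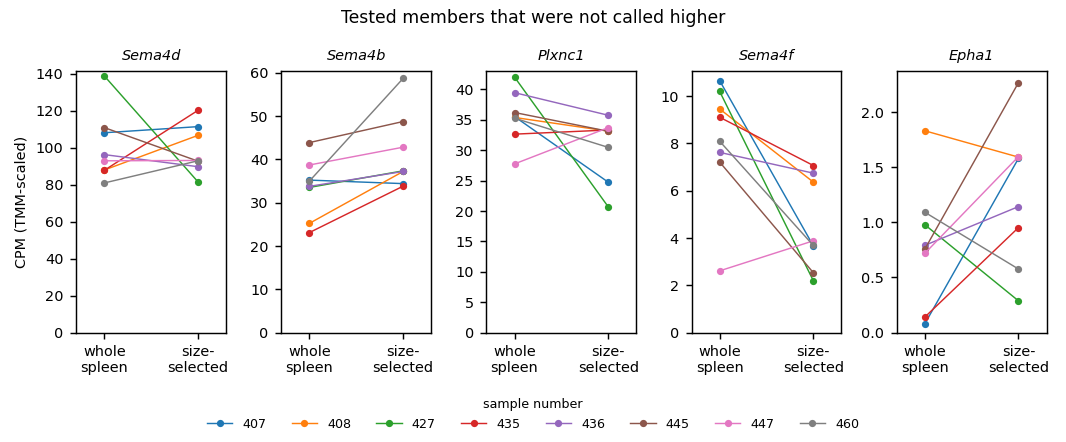
CPM (y axis, linear from 0, with its own range in each panel) of the 5 tested members that were not called higher, with a line joining the whole spleen and the size-selected sample of each number. Sema4d, Sema4b, Plxnc1 and Epha1 show lines in both directions, and for Sema4f 7 of 8 lines fall while number 447 rises.

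Neuropilins are the binding receptors of class 3 semaphorins and also co-receptors of vascular endothelial growth factor. Both were called higher. Nrp1 was the most abundant member in CPM in the size-selected samples, at 129, 201 and 346 CPM, and was at 6.10, 9.08 and 21.7 CPM in whole spleen. The groups did not overlap, and number 427 was the highest in each. The log2 fold change was 4.37 (SE 0.26, adjusted p = 1.76e-10). Nrp2 was at 25.2, 73.7 and 116 CPM compared with 3.71, 5.42 and 9.06 CPM. Its lowest size-selected sample, number 435, lay well below the other 7, which were at 62.3 CPM or more, and above every whole spleen sample. Its log2 fold change was 3.63 (SE 0.26, adjusted p = 1.01e-09).

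Plexins are the signalling receptors of semaphorins, and 8 of 9 were called higher, with a median log2 fold change of 2.84. Plxna2, a receptor for Sema6a and a partner of neuropilins, was at 12.2, 22.2 and 34.7 CPM in the size-selected samples and at 0, 0.390 and 0.481 CPM in whole spleen. Its values were far apart, with a log2 rise of 6.32 (SE 0.41, adjusted p = 4.04e-10). Plxnb1, the high-affinity receptor of Sema4d, was at 11.1, 31.8 and 35.7 CPM compared with 0.321, 1.18 and 2.86 CPM. It also did not overlap, and its log2 fold change was 4.43 (SE 0.38, adjusted p = 8.47e-09).

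Plxnb2, a receptor of Sema4c, was the most abundant plexin at 64.5, 117 and 171 CPM, and at 10.4, 16.5 and 30.1 CPM in whole spleen. The groups did not overlap, and the log2 fold change was 2.77 (SE 0.23, adjusted p = 5.32e-09). Plxna4, Plxnb3, Plxnd1, Plxna3 and Plxna1 had log2 fold changes of 3.69, 3.22, 2.84, 2.13 and 2.07. For Plxna4 it was 4.32 without whole spleen sample 427. Plxnc1, the receptor of Sema7a and known from leukocytes, was at 20.7, 33.1 and 35.8 CPM in the size-selected samples and at 27.8, 35.5 and 42.0 CPM in whole spleen. The ranges overlapped, 2 of 8 pairs were higher, and the log2 fold change was -0.21 (SE 0.12, adjusted p = 0.110).

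Among the ephrins, 4 of 8 members were tested and all 4 were called higher. Efnb2, a transmembrane ephrin known as a marker of arterial endothelium, was at 46.0, 63.4 and 87.3 CPM in the size-selected samples and at 1.47, 2.83 and 3.67 CPM in whole spleen. Both groups were narrow and far apart, and the log2 fold change was 4.58 (SE 0.19), with an adjusted p of 1.53e-11 that was the smallest among the members. Efna1, a lipid-anchored ephrin of vessels and epithelia, was at 21.5, 34.6 and 58.4 CPM compared with 0.311, 0.719 and 2.86 CPM. Its groups did not overlap, with a log2 rise of 4.97 (SE 0.38, adjusted p = 2.62e-09).

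Efnb1, an ephrin-B that binds EphB receptors, was at 18.0, 33.0 and 47.3 CPM compared with 3.02, 5.74 and 7.97 CPM. It did not overlap and had a log2 rise of 2.58 (SE 0.22, adjusted p = 7.14e-09). Efna2 had a log2 fold change of 2.33, which was 3.0 without number 435, and its groups overlapped. Efna3, Efna4, Efna5 and Efnb3 were below the filter, with no sample above 3.08 CPM.

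Of the 14 Eph receptors, 10 were tested and 9 were called higher. Ephb4, the receptor of ephrin-B2 and known as a marker of venous endothelium, was at 44.4, 103 and 179 CPM in the size-selected samples and at 0.0653, 2.90 and 11.0 CPM in whole spleen. The groups did not overlap, but the whole spleen values were widely spread, with 1 count in sample 447. The log2 fold change was 4.96 (SE 0.48, adjusted p = 4.50e-08). Its gene lies at chr5:137350109-137378669, and the ligand's gene Efnb2 at chr8:8617434-8661242 (GRCm38). Ephb3 was at 1.88, 4.45 and 10.3 CPM compared with 0, 0 and 0.992 CPM. Its groups did not overlap, and the log2 fold change of 4.48 (SE 0.69, adjusted p = 1.44e-05) was 5.52 without number 408, which held the highest whole spleen value.

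Epha3, an EphA receptor that binds several ephrin-As, was at 5.38, 10.3 and 20.1 CPM compared with 0, 0 and 0.778 CPM, with no count in 6 whole spleen samples. The log2 rise was 6.34 (SE 0.64, adjusted p = 7.77e-08), and 7.70 without number 407, which held the highest whole spleen value. Epha8 was at 1.38, 4.19 and 7.30 CPM in the size-selected samples and had no count in any whole spleen sample, so it was at least 19.0-fold higher against the floor of 3 counts per library. Epha2, the main receptor of ephrin-A1, differed less. It was at 12.1, 19.0 and 26.0 CPM compared with 3.57, 4.95 and 7.75 CPM, without overlap and with a log2 rise of 1.86 (SE 0.19, adjusted p = 7.46e-08). Its deposited values carry 2 of the constants, and the log2 fold change was 2.56 with them divided out. The same step took that of Sema6b from 3.36 to 4.05.

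Epha4, Ephb2, Epha7 and Ephb6 had log2 fold changes of 4.80, 3.04, 2.46 and 1.70. Epha1 was low in both groups, at 0.289, 1.36 and 2.27 CPM in the size-selected samples and 0.0793, 0.773 and 1.83 CPM in whole spleen, and was not called, with a log2 fold change that stood at 0.63 (SE 0.47, adjusted p = 0.241). It shares an exon with Zyx on the opposite strand.

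Slits are large secreted ligands of Robo receptors. Slit3 was at 10.5, 19.9 and 30.0 CPM in the size-selected samples and at 0.229, 0.620 and 2.20 CPM in whole spleen, without overlap. Slit3 rose by 4.71 on the log2 scale (SE 0.36, adjusted p = 2.74e-09). Slit2 was at 2.21, 5.52 and 11.8 CPM compared with 0, 0 and 0.642 CPM. All 10 of its whole spleen counts were in sample 460. The log2 fold change was 6.00 (SE 0.69, adjusted p = 3.57e-07), and with number 460 left out the whole spleen samples were all at 0. Slit1 was below the filter, at no more than 1.72 CPM in any sample.

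Of the Robo receptors, 3 of 4 were tested and all 3 were called higher. Robo1 was at 4.26, 7.28 and 11.4 CPM compared with 0, 0.206 and 0.490 CPM in whole spleen, without overlap and with a log2 rise of 4.94 (SE 0.43, adjusted p = 1.21e-08). Robo4, a receptor of the endothelium, was the most abundant at 32.8, 49.8 and 81.8 CPM compared with 1.17, 1.82 and 3.92 CPM. It did not overlap, with a log2 rise of 4.75 (SE 0.27, adjusted p = 1.46e-10). Robo2 had a log2 fold change of 4.47, and Robo3 was below the filter, at no more than 0.277 CPM in either group.

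Netrins are laminin-related secreted ligands. Ntn4, which is found in basement membranes, was at 42.3, 75.1 and 125 CPM in the size-selected samples and at 0.839, 1.34 and 6.77 CPM in whole spleen. The groups did not overlap, and the log2 fold change was 5.11 (SE 0.39, adjusted p = 2.33e-09). Ntn1, the classical attractant and repellent of commissural axons, was at 7.13, 16.2 and 28.7 CPM compared with 0, 0.209 and 0.898 CPM. It did not overlap either, with a log2 rise of 5.59 (SE 0.49, adjusted p = 1.09e-08). Ntn3 had a log2 fold change of 3.77, and Ntn5 was below the filter. Ntn3 shares exon sequence on the same strand with Tbc1d24, which was itself called higher by 2.29, so its reads are uncertain.

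The netrin receptors were measured in only a part of the family. Unc5b, a repulsive netrin receptor known from arterial endothelium, was at 14.0, 22.7 and 35.8 CPM compared with 0.275, 0.876 and 1.24 CPM, without overlap. Its log2 fold change was 4.81 (SE 0.28, adjusted p = 1.55e-10). Unc5a was at 5.44, 8.85 and 14.2 CPM compared with 0.458, 2.29 and 3.66 CPM, also without overlap, with a log2 rise of 2.04 (SE 0.30, adjusted p = 9.10e-06). It shares an exon with Hk3 on the opposite strand, which was called higher by 0.89 on the log2 scale. Dcc, the attractive netrin receptor, had counts in 1 of 16 samples, at 0.0481 CPM. Unc5c and Unc5d were below the filter, with highest values of 4.36 and 0.394 CPM. With the constants divided out, Unc5c passed the filter and was called higher, at 4.07 on the log2 scale (adjusted p = 7.68e-06, edgeR).

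**Figure D3:**
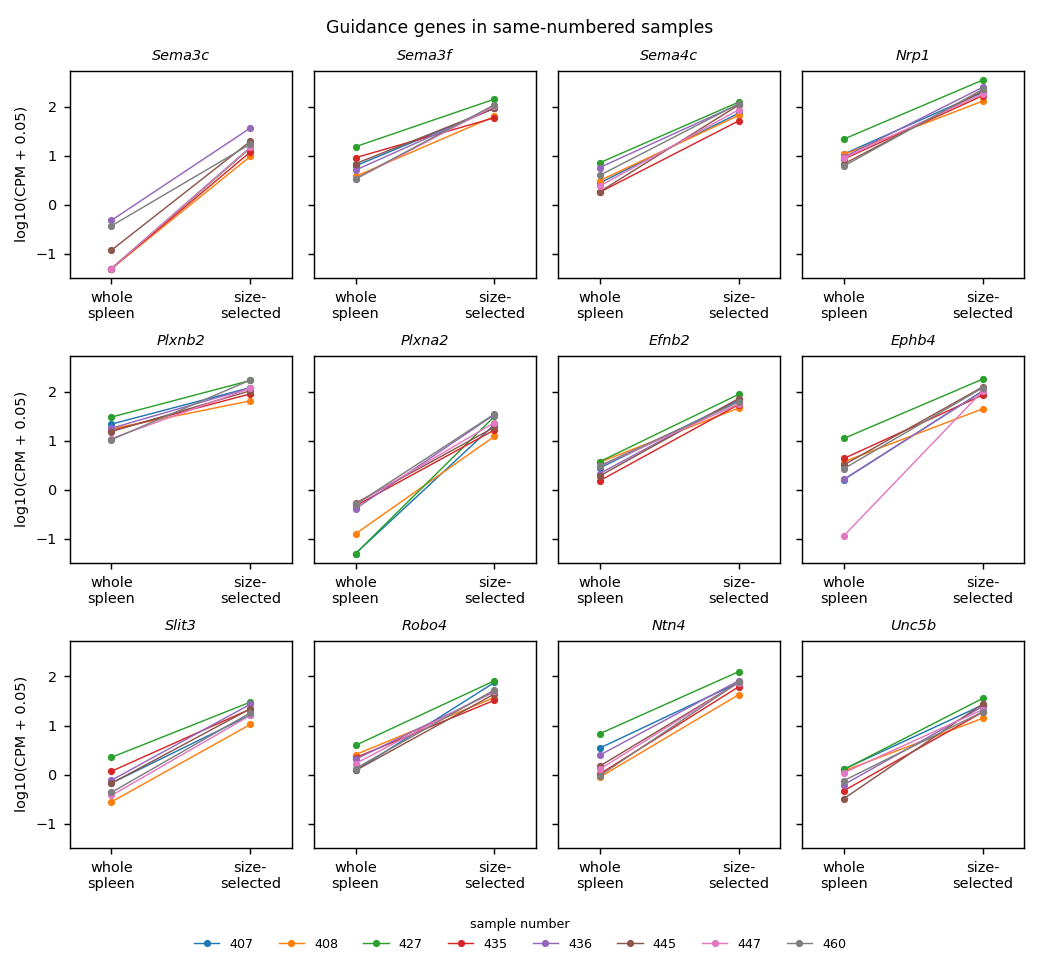
Log10 of CPM plus 0.05 (y axis) of 12 members from 10 of the families, with a line joining the whole spleen and the size-selected sample of each number. All lines rise, and number 427 is the highest whole spleen sample in 9 panels, the exceptions being Sema3c, Plxna2 and Unc5b.

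In all, 16 members were below the filter: Dcc, Epha5, Epha6, Epha10, Ephb1, Efna3, Efna4, Efna5, Efnb3, Robo3, Sema4g, Sema5b, Slit1, Ntn5, Unc5c and Unc5d. Epha6 and Epha10 had 0 counts in all 16 samples. In all 8 whole spleen samples, 8 members had no count: Dcc, Efna3, Epha5, Epha6, Epha8, Epha10, Sema3e and Unc5d. With no filter beyond 1 count, 67 members were tested and 56 called higher, beside 7157 of all 28235 genes tested in that way, the 8 gained being Efna3, Efna5, Efnb3, Ephb1, Sema4g, Sema5b, Unc5c and Unc5d.

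Levels of different genes were compared as mean CPM per kilobase of exon, using all annotated exons of a gene. This divides by more sequence than any 1 transcript holds and so understates genes with long or alternative ends. In the size-selected samples, Ephb4 was the highest at 23.1 ± 8.18 CPM per kilobase (SD, n = 8), followed by Nrp1 at 21.7 ± 6.64, Ntn4 at 20.4 ± 6.21, Efna1 at 19.9 ± 6.5, Sema4c at 19.9 ± 5.68, Sema3f at 18.1 ± 5.01 and Plxnb2 at 15.4 ± 4.69. Neighbours in this order differed by less than their spread. The order rests on the deposited counts, in which Sema3f and Plxnb2 carry constants of the kind described for Sema4f. Ephb4, Nrp1, Ntn4, Efna1 and Sema4c carry none. With the constants divided out, the log2 fold change of Sema3f went from 3.85 to 4.39 and that of Ephb4 from 4.96 to 4.90. The place of Sema3f below Ephb4 thus holds for the deposited counts only. In whole spleen Sema4d was the highest at 13.1 ± 2.42 CPM per kilobase, followed by Sema4b at 5.95 ± 1.19, Sema7a at 4.58 ± 0.729, Sema4a at 4.26 ± 1.09, Plxnc1 at 4.26 ± 0.510 and Plxnb2 at 2.25 ± 0.815. The steps from Sema4d to Sema4b and from Sema4b to Sema7a exceeded the SD of either gene, whereas Sema7a, Sema4a and Plxnc1 lay within 1 SD of each other. Of these first 5 members in whole spleen, Sema4d, Sema4b and Plxnc1 were not called between the fractions. Across the 69 members the ranks of the levels per kilobase in both fractions had a Spearman rank correlation of 0.819, a description over genes that share their libraries.

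**Figure D4:**
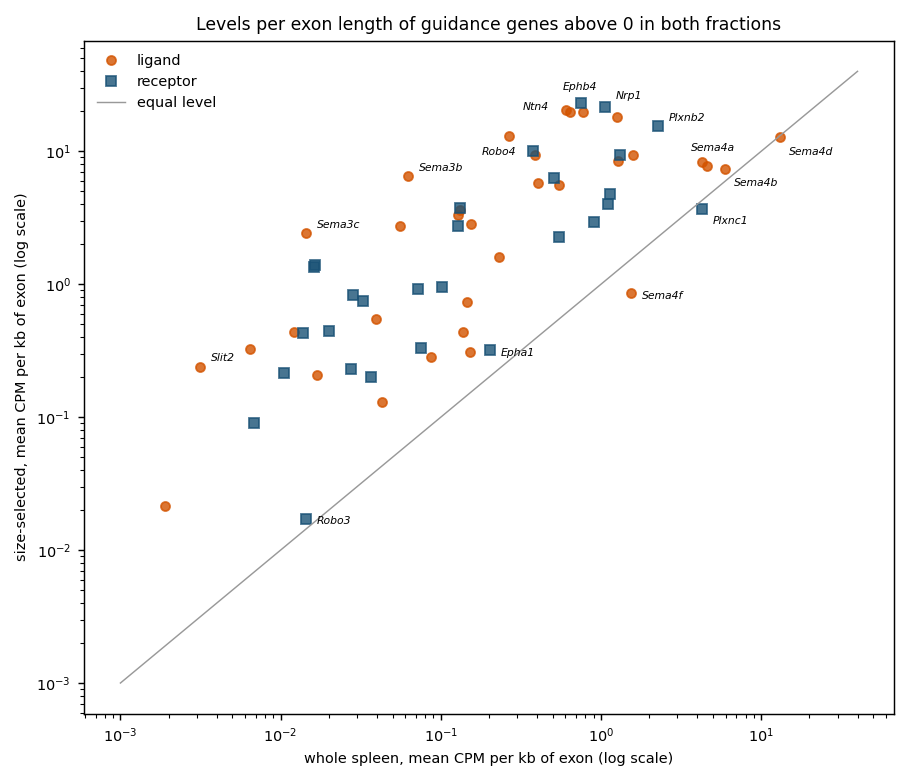
Mean CPM per kilobase of exon in whole spleen (x axis) and size-selected samples (y axis), both on log scales, for the 61 members above 0 in both fractions; 8 members at 0 in whole spleen are not drawn. Most ligands (circles) and receptors (squares) lie above the line of equal level, Sema4d lies close to it at 13.1 in whole spleen and 12.8 in the size-selected samples, and Sema4f and Plxnc1 lie below it.

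The members varied among the size-selected samples, and so did the cell type markers. The coefficient of variation of the tested members in these samples ran from 13.1 to 87.4%, with a median of 34.6%. Sample 427 was the highest for 23 of the 53, compared with 27.7% of all genes tested, sample 436 for 12 (10.2% of all genes) and sample 460 for 9 (9.50%). Sample 408 was the lowest for 25 of the 53, compared with 22.3% of all genes, and sample 435 for 14 (16.7%). Sample 427 also had the highest sums of endothelial, fibroblast and smooth muscle markers and sample 408 the lowest. Sample 427 was also highest for macrophage markers (8298 CPM, next 8085 CPM) and for dissociation genes (8571 CPM, next 6625 CPM), and lowest for B and T cell markers. The part of these cells and of handling in the members' spread was not tested. In whole spleen, sample 427 was the highest for 30 of the 53, compared with 19.4% of all genes tested and 50.8% of the 1717 genes that were called higher by at least 3 on the log2 scale. The endothelial, fibroblast, smooth muscle, mesothelial, macrophage and glia sums were also highest in whole spleen sample 427. Without it, 48 of the 48 members called higher were still called.

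Some members followed another sample. Sema3b, Sema3c, Sema3e and Plxnb3 were highest in size-selected sample 436, at 89.8, 36.5, 7.95 and 19.2 CPM. Their medians were 21, 14.7, 1.71 and 4.75 CPM. That sample also had the highest sum of glia markers, 771 CPM, with the next at 316 CPM. Sample 436 had the highest sum of megakaryocyte markers too, 645 CPM with the next at 509 CPM, and the second highest of fibroblast markers and of dissociation genes, 5782 and 6625 CPM. These 4 were picked after their values were seen, and the part of any of these cells or of handling in them was not tested.

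**Figure D5:**
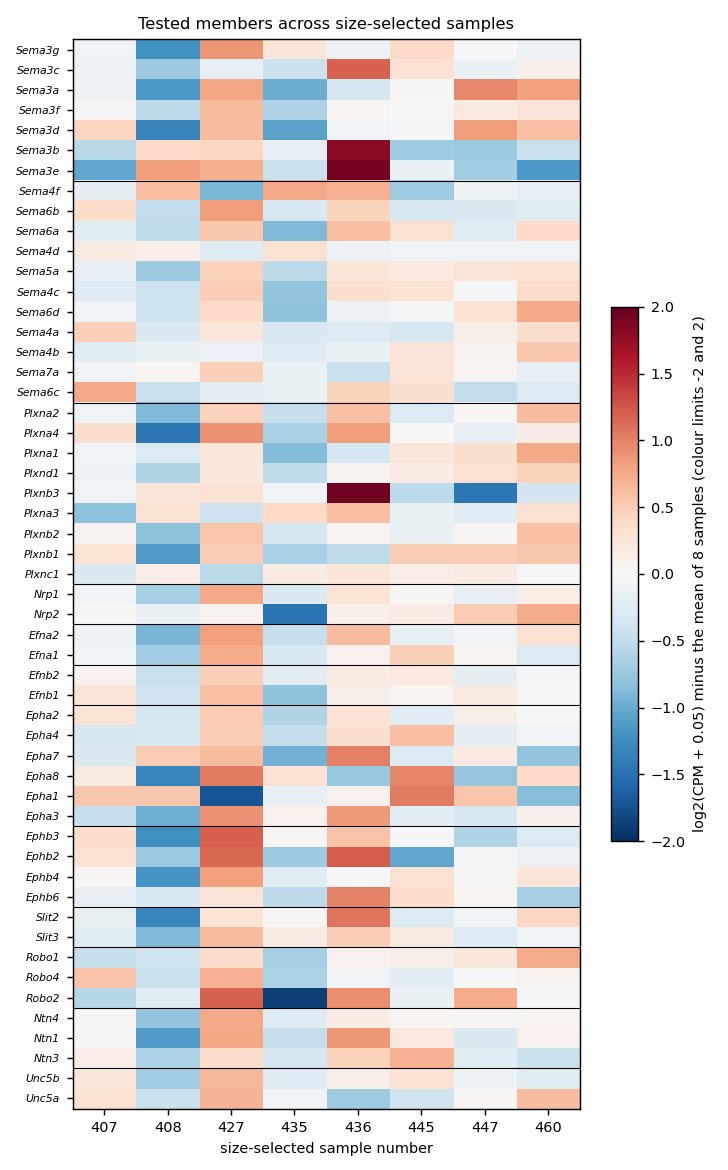
Log2 of CPM plus 0.05 minus the mean of the 8 size-selected samples (colour, limited to -2 and 2) for the 53 tested members in rows, ordered by family, and the size-selected samples in columns. Column 427 is mostly red and column 408 mostly blue, while Sema3b, Sema3e and Plxnb3 are darkest red in column 436.

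The difference between fractions was compared between the sexes with an interaction term in edgeR. Of 60 members tested, 0 were called, as were 0 of all 15760 genes. At an unadjusted p under 0.05 there were 7 members of 60 and 4.72% of all genes. DESeq2 called 0 members and 3 genes, with 12 of 60 members and 867 of 15760 genes at an unadjusted p under 0.05. Leaving out 1 number moved the edgeR counts to between 3 members (without 460) and 14 (without 436), and to between 503 genes (without 460) and 1810 (without 427). The members with the smallest p were Epha7, Plxnd1 and Sema3c, each with an adjusted p of 1.00. Epha7 had an interaction of 4.14 on the log2 scale (SE 1.05), female minus male. Its size-selected mean was 2.03 CPM in females and 1.92 CPM in males, while its whole spleen mean was 0.0340 CPM and 0.695 CPM. For Plxnd1, the receptor of Sema3e, the interaction was 0.99 (SE 0.31), with size-selected means of 79.5 CPM in females and 57.5 CPM in males and whole spleen means of 7.86 and 11.4 CPM. Sema3c was at 0 in all 4 male whole spleen samples, so its interaction is not given.

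Other genes of the same pathways were divided into partners at the membrane and effectors inside the cell. Of 25 partners, 19 were tested: 17 were called higher, 1 was called lower and 1 was not called, with a median log2 fold change of 2.17, beside 37.5% higher and 30.4% lower among all genes tested. Chl1, an adhesion molecule that associates with neuropilin 1, was at 6.05, 12.5 and 55.7 CPM in the size-selected samples and at 0, 0 and 0.344 CPM in whole spleen. The log2 rise was 7.20 (SE 0.68, adjusted p = 3.25e-08). Neo1, a netrin receptor related to Dcc, was at 10.8, 24.8 and 32.7 CPM compared with 0.0763, 0.378 and 0.835 CPM. Neo1 rose by 5.73 on the log2 scale (SE 0.38, adjusted p = 4.82e-10), so a receptor of the Dcc type was measured although Dcc itself was almost at 0. Sdc2, a heparan sulfate proteoglycan, had a log2 fold change of 5.58 (SE 0.40). Cd72, the B cell receptor of Sema4d, was at 58.4, 107 and 165 CPM compared with 193, 209 and 224 CPM. Its groups did not overlap, and it was the partner called lower, falling by 0.92 on the log2 scale (SE 0.14, adjusted p = 1.15e-05).

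Of 52 effectors, 49 were tested: 26 were called higher, 8 lower and 15 were not called, with a median log2 fold change of 0.40. Among all genes tested 67.9% were called in either direction, with 37.5% higher and 30.4% lower, and the median was 0.05. The share of effectors called in either direction was near that background and is no result about them. By direction, a larger share of effectors than of all genes was called higher and a smaller share lower. Whether this lean differs from that of all genes was not tested. The largest rises were those of Ablim3, an actin-binding protein, with a log2 fold change of 7.20 (SE 0.48), of Dpysl4, a collapsin response mediator protein, with 6.53 (SE 0.54), and of Chn1, a Rac GTPase-activating protein, with 5.39 (SE 0.53). Among the 8 called lower were the kinase Abl2 with -0.77 (SE 0.23) and the actin-severing protein Cfl1 with -0.71 (SE 0.08). With the constants divided out, 2 of the 8 lower calls were lost, that of the GTPase Cdc42 among them (-0.52 to -0.15, adjusted p = 0.0870, edgeR). In the same fit Nck2 and Abl1 were no longer called, and Rac1, Vav2 and Srgap1 were called higher.

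The authors' deposited table lists 2201 genes, each higher by 3.5 or more on the log2 scale in their own comparison of the same samples. It holds 33 of the 69 members (47.8%), 19 ligands and 14 receptors, compared with 4.01% of the 54838 genes of the count table. Only 14510 of those genes passed the filter here, compared with 53 of the 69 members, so the shares do not have a like base. Of those 33, 28 were tested here and called higher, and 5 were below the filter. Their log2 fold changes in the authors' deposited table ran from 3.63 to 8.29. Nrp1 had an authors' mean of 74.2 TPM, a level per transcript length, in the size-selected group and 2.89 TPM in whole spleen in that deposited table, and Sema3f had 59.8 and 2.36 TPM. Being made from the same samples, these values are not independent of those above.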

How the data were processed

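RNA of 8 size-selected and 8 whole spleen samples was sequenced. The deposited table holds the authors' estimated counts per gene, and per the submitters' processing notes Trim Galore, STAR, RSEM, DESeq and mm10 were used, with the annotation not given in the sources used here. In the size-selected columns, 3898 genes (19 members) carry deposited counts multiplied by up to 3 constants between 0.659 and 0.964, found from the values and mentioned in no label or header. Per the file headers, the authors' comparison table gives a mean signal, log2 fold changes and their errors, a score, p-values, and mean TPM and FPKM per group. Its signal, score and FPKM were not analysed.

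Counts were rounded to whole numbers, filtered with filterByExpr (minimum count 10), TMM-scaled and tested with edgeR 4.0.16 (R 4.3.3), quasi-likelihood, with group as the only term and Benjamini-Hochberg adjustment over all genes tested. The SE is the log2 value divided by the root of its F statistic. Alternatives used DESeq2 1.42.0, limma 3.58.1, other scalings and filters, the sample number as a block, sex as a covariate, restored counts and left-out samples. The fits were tested on simulated data. Same-numbered samples deviated together, with correlations from 0.119 to 0.369, so the numbers pair the samples. Gene positions and exons are from GENCODE M21 (GRCm38), in which all 69 members had the same symbol.

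Members, families and lists were chosen with earlier results of these data known. Per family, full values are given for up to 2 called members with the largest rise, the called member with the largest fall and the most abundant member, at a mean of at least 1 CPM (28 members), and in the interaction for the 3 smallest p. In the lists of partners and effectors, the rule takes 3 rises and 3 falls, of which 1 fall is not reported here. Other genes were named after their values were seen. Whether counting used strand is not given in the sources used here, and 15 members share an exon with a gene on the opposite strand. Counting limits the precision at low values, where 1 count was 0.0653 CPM in whole spleen sample 447.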

Additional observations from a re-analysis of the deposited data

Results flagged for a closer look

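For 6 of the 54 groups of 8 samples examined (both fractions of the 28 members given in full, without the groups at 0 counts), 1 sample lay far from the others by Dixon's gap test on log2 CPM with 0.5 counts added. Chance flags about 1 group in 20, or 2.7 groups here. In whole spleen, Sema4f in sample 447 was at 1.40 on that scale, with the nearest other sample at 2.86. Nrp1 in whole spleen sample 427 was at 4.44, above the next sample at 3.43. Unc5a in whole spleen sample 408 was at -1.01 and the next at 0.92. Ephb4 in whole spleen sample 447 was at -3.35 and the next at 0.67. Slit2 in whole spleen sample 460 was at -0.57 while the other 7 samples had no count. Nrp2 in size-selected sample 435 was at 4.65, below the next at 5.96.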

How the results depend on the processing

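Of 994 values of the tested members under the alternatives, 981 kept their direction and side of the threshold. Members that an alternative did not test have no value among these. With a minimum count of 50, only 40 members were tested and 37 called higher, beside 4399 of 11608 genes. Of the 48 called higher in the main fit, 36 were kept. Efna2, Ephb3, Epha7, Epha8, Ephb2, Plxnb3, Plxna3, Slit2, Sema6c, Robo2, Sema3e and Ntn3 then fell below the filter. Sema4d, which was not called, turned from -0.03 to 0.0979 with library totals, 0.0475 without whole spleen sample 427 and 0.0349 without number 445, with values from -0.102 (without number 435) to 0.0901 (without number 427) when 1 number was left out. Sema4b was called with library totals (0.42), a minimum count of 50 (0.33), sex as a covariate (0.30) and without number 445 (0.35). Library totals moved the median of all genes from 0.05 to 0.175 on the log2 scale. With a change of 1 or more on the log2 scale required, 46 members were higher and 0 lower, and 3598 genes were higher and 1246 lower. Sema4f, Sema4a and Sema7a then lost their calls, although Sema7a was at 1.17 with the constants divided out. With restored counts 54 members were tested, with 49 higher (Unc5c gained) and 0 lower. Leaving out 1 number at a time gave 48 to 50 members higher, 1 lower, 5194 to 5480 genes higher and 3958 to 4409 lower. Without number 445 the log2 fold change of Plxna3 went from 2.13 to 2.75. With limma-voom the linear fold changes of Efna2, Epha3, Epha7, Ephb2, Ephb3, Ephb4, Plxna3, Sema3g and Slit2 went up by more than 1.5 times. Their log2 values were then 2.98, 7.26, 3.24, 3.99, 5.55, 5.65, 2.87, 6.47 and 6.78. The causes were not tested.

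With the sample number as a replicate block, 49 members were higher and 1 lower, and of all genes 5531 were higher and 4545 lower. The block changed the call of no member but Sema4b. The interaction of sex and fraction had 0 genes called in edgeR, 3 with DESeq2, 3 with the replicate block and 0 to 1 when a number was left out, the 1 being without number 445.

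Leaving out 1 number moved the linear fold change of 6 of the 53 tested members by more than 1.5 times, namely Efna2, Epha3, Ephb3, Plxna3, Sema3b and Slit2. For the tested members at 0 in whole spleen only a lower bound is given.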
